A study of Mus musculus with 10 samples.

Results

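The paternally methylated imprints of H19/Igf2 and Dlk1-Meg3 were described from 27 cytosine positions of 344353 measured anywhere in the series. The positions were chosen by coordinate, as every cytosine listed in a window of 30 kb on chromosome 7 (149755000 to 149785000, 6 positions) and a window of 45 kb on chromosome 12 (110755000 to 110800000, 21 positions), both on the mm9 build. The windows were picked with methylated counts at both loci already known from these libraries. All levels and group comparisons at them are therefore descriptions, given without a test.

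Imprinted genes are expressed from the copy of 1 parent, and a control region methylated in only the egg or only the sperm decides which copy that is. At H19/Igf2 the control region is methylated in sperm. On the paternal copy this methylation keeps the insulator protein CTCF off the DNA, so that Igf2, a fetal growth factor gene, is expressed, while H19, a long noncoding RNA, comes from the maternal copy. At Dlk1-Meg3 an intergenic control region is likewise methylated on the paternal copy, which expresses Dlk1, a transmembrane regulator of cell differentiation, while Meg3, a long noncoding RNA, comes from the maternal copy. Most sperm methylation is lost from the paternal genome between fertilisation and the blastocyst, and imprint control regions are known for keeping theirs through that period.

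Methylation was read by reduced representation bisulfite sequencing (RRBS), in which the enzyme MspI cuts at CCGG and CpG-rich fragments are read after bisulfite treatment. Bisulfite leaves 5-methylcytosine and 5-hydroxymethylcytosine alike unconverted, so a level is the sum of both. There were 10 libraries in 5 groups of 2: wild-type (WT) CAST/EiJ sperm, and zygotes and blastocysts each as WT and as CKO. CKO stands in the titles for the genotype maternal Tet3 KO, a deletion on the maternal side of Tet3, the dioxygenase that the egg supplies to oxidise 5-methylcytosine. All embryos came from C57BL/6J x CAST/EiJ fertilisation in vitro, with eggs of superovulated females 7 to 10 weeks old and CAST/EiJ sperm. Zygotes were pooled at 40 to 50 a library 13 h after fertilisation, and blastocysts at 4 a library at 96 h. The Cre driver of the knockout is not given in the sources used here.

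Depth limited every value. Libraries held 1005492 to 2535229 counts, the median position being read 4 to 9 times, and 18 to 23 of the 27 positions were listed in any library. The reads carry no molecular identifiers, so the 95% intervals below (exact Clopper-Pearson) and the upper limits for a share of 0 (3 counts of the total) cover counting error only. Neighbouring positions are often covered by the same reads, which makes intervals over summed positions too narrow and upper limits over them too low. Among control regions methylated in eggs, those listed for comparison other than Snrpn had 1 of 785 counts methylated in WT and 1 of 868 in CKO zygotes, and 4 of 424 in WT and 2 of 519 in CKO blastocysts. Snrpn, set apart after its values were seen, had 38 of 165 and 49 of 224 methylated in WT and CKO zygotes, and 28 of 183 and 66 of 307 in WT and CKO blastocysts. Sperm had 42 of 1044 methylated at the regions other than Snrpn, a higher share than any embryo group. Of these, 25 were from Grb10 in sperm replicate 2 (25 of 98, against 0 of 148 in replicate 1) and 16 from Zrsr1. At Snrpn sperm had 0 of 356, a lower share than any embryo group. The names of all deposited files, embryo and sperm, open with CAST, the paternal strain. Whether reads were sorted by parental allele is not given in the sources used here, and it was not tested what share of the embryo counts below is paternal. The window for Rasgrf1, another paternally methylated imprint, held 0 positions.

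No genome of the mm9 build was at hand, so the sequence of the covered positions is not shown. The start region of Meg3 is printed here because the cutting letters of MspI set what RRBS can read at a gene. It is from RefSeq (GRCm38.p6, chromosome 12, 109540746 to 109541045, plus strand) and runs from 250 bases before to 50 bases after the start of the transcript, with CCGG in capitals.
Meg3: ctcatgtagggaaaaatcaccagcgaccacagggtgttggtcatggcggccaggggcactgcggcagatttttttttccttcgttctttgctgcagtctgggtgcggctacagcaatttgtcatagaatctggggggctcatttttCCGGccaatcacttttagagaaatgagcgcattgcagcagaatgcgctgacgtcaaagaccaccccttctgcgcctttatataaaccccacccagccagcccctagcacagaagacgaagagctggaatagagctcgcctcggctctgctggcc
This sequence held 1 CCGG, which reads the same on both strands, and 13 CG dinucleotides. Of 32851 such start regions in the table, 52.8% held CCGG. The deposited positions are on another build and were not placed on this sequence.

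The H19/Igf2 control region was methylated in every zygote count. It was covered at 2 cytosines, 149767925 and 149767931 of chromosome 7, which had equal totals in all libraries, as positions on the same reads have. Summed over both, sperm replicate 1 had 8 of 8 counts methylated (interval 63.1 to 100%) and sperm replicate 2 had 8 of 12 (66.7%, interval 34.9 to 90.1). WT zygote replicate 1 had 16 of 16 (79.4 to 100%), CKO zygote replicate 1 had 22 of 22 (84.6 to 100%) and CKO zygote replicate 2 had 38 of 38 (90.7 to 100%). WT zygote replicate 2 had no count there, so both genotypes were at 100% on 1 WT and 2 CKO libraries. The zygote libraries lay at or above the sperm libraries.

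In blastocysts the H19/Igf2 control region was covered by 1 library of each genotype. WT blastocyst replicate 1 had 10 of 10 counts methylated (69.2 to 100%). CKO blastocyst replicate 1 had 1 count at each cytosine, unmethylated at 149767925 and methylated at 149767931. That pair of counts gives no usable level for CKO blastocysts.

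The rest of the H19 window was almost unread. The flank position 149757546, in the part taken as beyond the end of H19, had 4 of 4 counts methylated in sperm replicate 2, 4 of 5 and 3 of 3 in the WT zygote replicates, and 2 of 2 in CKO zygote replicate 1. In blastocysts it had 2 of 3 counts methylated in WT replicate 1, 0 of 1 in CKO replicate 1 and 6 of 7 in CKO replicate 2. Summed by group it was mostly methylated, on at most 8 counts a group. A cytosine nearer the start of H19, 149764880, was read once, methylated, in sperm replicate 2. On the Igf2 side, positions 149778503 and 149778531 were unmethylated in 3 counts each, in WT blastocyst replicate 2 alone. No position was listed in the part taken as the H19 transcript.

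The Dlk1-Meg3 control region held 13 of the 21 cytosines of its window, from 110763922 to 110768128. Its level over all 13 was 96.0% ± 2.90 in sperm (SD, n = 2 here and for each group below). Zygotes were at 85.9% ± 2.92 (WT) and 83.3% ± 1.61 (CKO), and blastocysts at 66.6% ± 16.1 (WT) and 64.3% ± 2.14 (CKO). CKO minus WT was -2.61 points in zygotes (SD of the difference 3.33) and -2.32 points in blastocysts (SD 16.2), both smaller than the spread between replicates. The zygote difference was -0.13 points with narrower boundaries, -4.33 points when each position weighed the same and -3.96 points (SD 1.99) over positions with at least 3 counts, the last being larger than its spread. In blastocysts the sign turned to 10.7 points when each position weighed the same, to 16.5 points with the most covered position per tile and to 9.03 points without WT blastocyst replicate 2. These averages joined stretches that behaved differently, as the map of methylation along both windows shows.

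**Figure D1:**
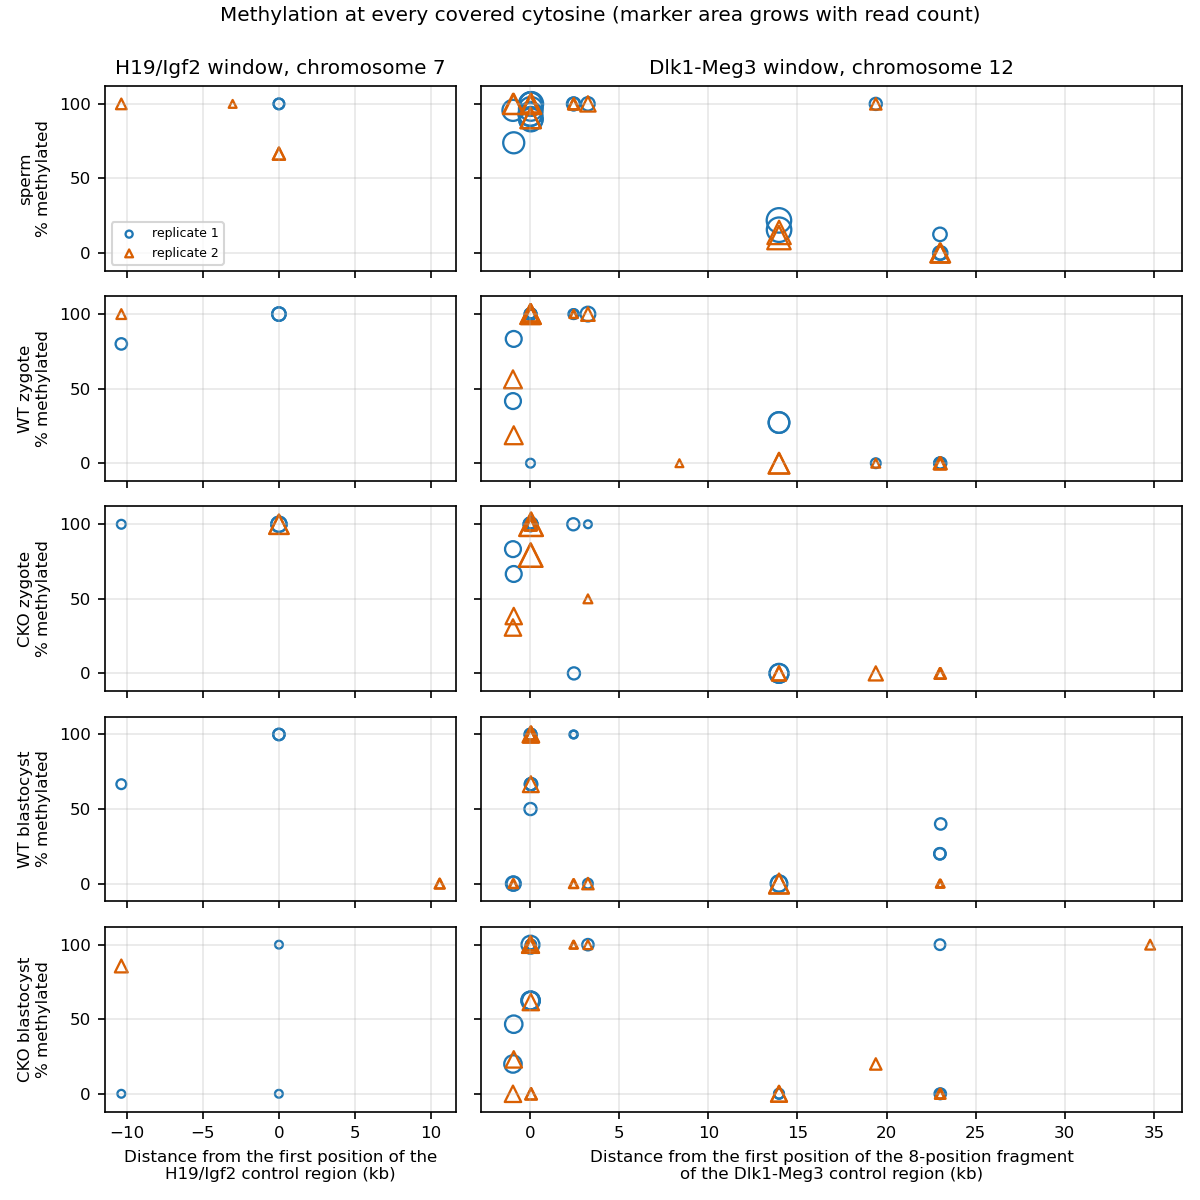
Percent methylation (vertical axis) of each covered cytosine against its distance in kb from the first covered cytosine of the H19/Igf2 control region (left) or of the 8-position fragment of the Dlk1-Meg3 control region (right), in the 5 groups. Circles are replicate 1 and triangles replicate 2, with a larger area for more counts. At distance 0 on the right, most symbols lie high in all groups, while the neighbouring pair just to its left runs from 74 to 100% in sperm to 0% in WT blastocysts.

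A fragment of 60 bp in the Dlk1-Meg3 control region was mostly methylated in all 10 libraries. It spans 110764888 to 110764947 and holds 8 cytosines, 7 of them in the tile that starts at 110764901. Summed over the fragment, sperm replicates 1 and 2 had 221 of 232 (95.3%, interval 91.7 to 97.6) and 144 of 148 counts methylated (97.3%, 93.2 to 99.3). WT zygotes had 26 of 28 (92.9%, 76.5 to 99.1) and 124 of 124 (100%, 97.1 to 100), and CKO zygotes had 40 of 40 (100%, 91.2 to 100) and 128 of 140 (91.4%, 85.5 to 95.5). The zygote replicates of either genotype thus lay on both sides of the sperm replicates, and the genotypes overlapped.

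The same fragment was lower in blastocysts but still mostly methylated. WT blastocyst replicates had 35 of 44 (79.5%, interval 64.7 to 90.2) and 60 of 64 counts methylated (93.8%, 84.8 to 98.3), and CKO blastocyst replicates had 58 of 76 (76.3%, 65.2 to 85.3) and 57 of 72 (79.2%, 68.0 to 87.8). The mean was 96.3% ± 1.44 in sperm (SD, n = 2 here and below), 96.4% ± 5.05 in WT and 95.7% ± 6.06 in CKO zygotes, and 86.6% ± 10.0 in WT and 77.7% ± 2.02 in CKO blastocysts. Both CKO blastocyst libraries were below both CKO zygote libraries, while WT blastocysts and WT zygotes overlapped. Both CKO blastocyst libraries also lay below both WT blastocyst libraries, the nearer pair being 79.2% and 79.5%, but in the tile starting at 110764901, which leaves out the first cytosine, the genotypes overlapped.

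The fragment was read on both strands, so that 3 of its CpGs could be compared between strands. A CpG carries a cytosine on each strand at adjacent coordinates, here 110764904 and 110764905, 110764923 and 110764924, and 110764928 and 110764929. The remaining cytosines, 110764888 and 110764947, were assigned to the strand whose totals they matched in all 10 libraries. All 4 cytosines of a strand had equal totals within each library, from 4 to 28 counts on the top strand and from 2 to 30 on the bottom strand, so each strand was covered by that many reads. Top and bottom strands come from different reads and had unequal coverage: CKO zygote replicate 2 had 6 counts per top position and 29 per bottom position.

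Zygotes were mostly methylated on both strands. Replicate 1 of each genotype had only 2 bottom-strand reads. The 3 CpGs of a library share reads, so the pairs counted here are not independent. Of the 12 pairs of CpG and zygote library, 9 had 100% on both strands, and 1 differed by at least 50 points. That 1 was 110764904 in WT zygote replicate 1, with 5 of 5 counts on the top strand and 0 of 2 on the bottom strand, where the same reads were methylated at their other 3 cytosines. In CKO zygote replicate 2 the bottom strand had 23 of 29 counts methylated at 110764905 and at 110764924 and 29 of 29 at the other positions.

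In blastocysts 1 CpG was partly unmethylated in all 4 libraries, and other cytosines in 1 or some of them. The shared one was 110764923 and 110764924, with 10 of 16 and 8 of 13 top-strand counts methylated in the CKO replicates and 4 of 6 and 8 of 12 bottom-strand counts in the WT replicates, and with 100% on its other strand in each. Of the 12 pairs of CpG and blastocyst library, 4 had 100% on both strands, and 2 differed by at least 50 points. In sperm 1 of 6 pairs had 100% on both strands and 0 differed by that much. Sperm had 16 to 30 reads per strand, and a pair read more often reaches 100% less easily, so these counts of pairs are not compared between stages. In CKO blastocyst replicate 2, cytosine 110764928 had 13 of 13 counts methylated and its partner 110764929 had 0 of 5. The same bottom-strand reads had 0 of 5 at 110764947 and 5 of 5 at 110764905 and 110764924. In CKO blastocyst replicate 1 the top strand had 10 of 16 counts methylated at 110764888, 110764923 and 110764928 but 16 of 16 at 110764904. WT blastocyst replicate 1 had 3 of 6 bottom-strand counts methylated at 110764905, 4 of 6 at the other bottom-strand cytosines and all top-strand counts, and WT blastocyst replicate 2 had 8 of 12 at 110764924 as its only position below 100%. Cytosine 110764904 was at 100% in all 10 libraries, and no other cytosine of the fragment was.

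**Figure D2:**
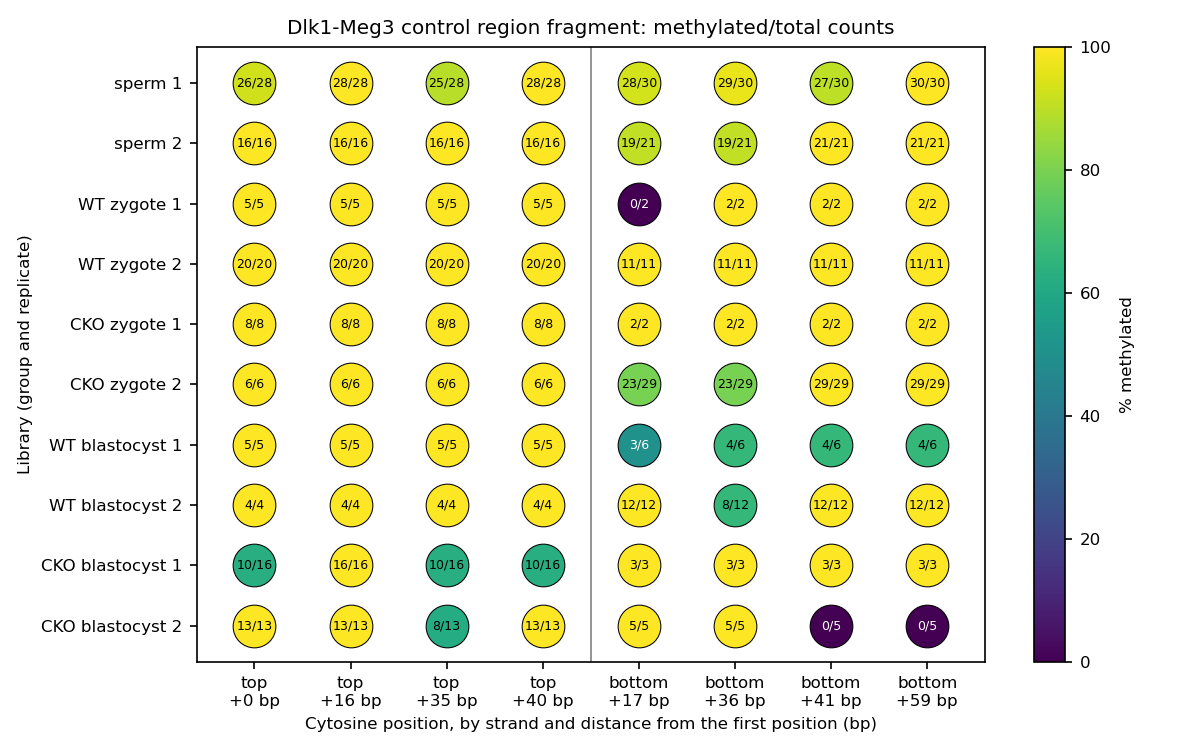
Methylated and total counts at the 8 cytosines of the Dlk1-Meg3 fragment (columns, top strand left and bottom strand right, by distance in bp from the first) in the 10 libraries (rows), coloured by percent methylation. Zygote rows are nearly all at 100%, and blastocyst rows hold scattered lower cells, down to 0 of 5.

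A neighbouring pair of cytosines, 110763922 and 110763965, lay in the part taken as the control region but outside its narrower boundaries. Summed over the pair, group levels were lower in zygotes than in sperm and lower again in blastocysts. Whether the paternal copy lost methylation was not tested, as the paternal share of the embryo counts is not known. Both cytosines had equal totals in each library, and the counts that follow are summed over them. Sperm had 39 of 46 (84.8%, interval 71.1 to 93.7) and 42 of 42 counts methylated (100%, 91.6 to 100). WT zygotes had 15 of 24 (62.5%, 40.6 to 81.2) and 12 of 32 (37.5%, 21.1 to 56.3), and CKO zygotes had 18 of 24 (75.0%, 53.3 to 90.2) and 9 of 26 (34.6%, 17.2 to 55.7). All 4 zygote libraries were below both sperm libraries. The intervals of the higher WT and the higher CKO zygote library overlapped that of the lower sperm library. The zygote genotypes overlapped, with means of 50.0% ± 17.7 in WT and 54.8% ± 28.6 in CKO (SD, n = 2 each). Taken singly, 110763922 was lower in every zygote library than in both sperm libraries. At 110763965, WT zygote replicate 1 had 10 of 12 counts methylated (83.3%), above sperm replicate 1 with 17 of 23 (73.9%).

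In blastocysts this pair was unmethylated in WT and partly methylated in CKO. WT blastocysts had 0 of 18 and 0 of 4 counts methylated, and the 22 counts together allow a share of up to 13.6%. They are 11 counts at each cytosine with equal totals, as the same reads give, so this limit is too low. CKO blastocysts had 10 of 30 (33.3%, interval 17.3 to 52.8) and 3 of 26 (11.5%, 2.45 to 30.2). At 110763922 alone, every blastocyst library was below every zygote library, and CKO replicate 2 had 0 of 13. At 110763965, CKO blastocyst replicate 1 had 7 of 15 (46.7%). That was above CKO zygote replicate 2 (38.5%) and WT zygote replicate 2 (18.8%). Summed over the pair, the CKO libraries were above the WT libraries. However, WT replicate 2 had 2 reads at each cytosine, and the lower CKO interval overlaps the limit for WT.

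The far end of the part taken as the control region, also outside the narrower boundaries, was too thinly read for group levels. At 110767308 and 110767343, sperm had 14 of 14 and 9 of 9 counts methylated, WT zygotes 6 of 6 and 2 of 2, WT blastocysts 2 of 2 and 0 of 4, and CKO blastocyst replicate 2 had 2 of 2. CKO zygote replicate 1 had 6 of 6 at the first and 0 of 6 at the second of these cytosines, which makes its level of 50% the outcome of 1 set of reads. At 110768128, sperm had 8 of 8 and 11 of 11 counts methylated and WT zygotes 10 of 10 and 8 of 8. CKO zygotes had 1 of 1 and 1 of 2 there, WT blastocysts 0 of 3 and 0 of 5, and CKO blastocysts 5 of 5 and 2 of 2. The blastocyst genotypes were thus at opposite ends at this cytosine, in 8 WT and 7 CKO counts.

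Meg3 itself was low in sperm near its start, and 7 of the 8 embryo libraries had no methylated count there. The pair 110778848 and 110778855 lies in the part taken as the Meg3 promoter, which is known for gaining its paternal methylation only after fertilisation. Sperm had 12 of 64 (18.8%, interval 10.1 to 30.5) and 7 of 58 counts methylated there (12.1%, 4.99 to 23.3). WT zygote replicate 1 had 12 of 44 (27.3%, 15.0 to 42.8), all of them at 6 of 22 per cytosine, and WT zygote replicate 2 had 0 of 44. No count was methylated in CKO zygotes (0 of 36 and 0 of 18, which together allow up to 5.56%). The same held for blastocysts, with 0 of 26 and 0 of 40 in WT (up to 4.55%) and 0 of 6 and 0 of 24 in CKO (up to 10%). The cytosines of this pair had equal totals in each library, so these limits are too low. CKO minus WT zygotes was -13.6 points with an SD of 19.3, so the difference rested on 1 WT library and was smaller than the replicate spread.

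Further into the part taken as the Meg3 transcript, 1 cytosine was methylated in sperm and unmethylated in zygotes. At 110784283, sperm had 6 of 6 and 5 of 5 counts methylated, WT zygotes 0 of 3 and 0 of 2, CKO zygote replicate 2 had 0 of 9 and CKO blastocyst replicate 2 had 1 of 5. WT blastocysts had no count there. The 9 CKO counts allow a share of up to 33.3%.

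The 3 cytosines 110787877, 110787886 and 110787926 had shared totals and were nearly unmethylated in sperm and zygotes. Of their sperm counts, 1 was methylated (1 of 8 at 110787886 in replicate 1), and the zygote libraries with counts had 0 of 5, 0 of 6 and 0 of 4 at each cytosine. In WT blastocyst replicate 1 they had 1 of 5, 1 of 5 and 2 of 5 counts methylated. CKO blastocyst replicate 1 had 4 of 4 at 110787886 and 0 of 4 at the other cytosines, and CKO blastocyst replicate 2 had 0 of 3 at each. Methylation above the zygote level therefore appeared in 1 library of each blastocyst genotype, on 5 reads in WT and 4 in CKO. The position 110799680 had 3 of 3 counts methylated in CKO blastocyst replicate 2, and 110773263 had 0 of 1 in WT zygote replicate 2. Both were unread in the other libraries. No position was listed on the Dlk1 side of the control region within the window.

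The windows were set beside all autosomal positions that sperm had methylated, defined by a level of 80% or more over both sperm libraries, each with 5 or more counts. Of the 27 positions, 13 met this definition, all on chromosome 12: the 8 of the fragment and 110763922, 110763965, 110767343, 110768128 and 110784283. Levels in an embryo library were taken where it had at least 5 counts. Over the whole series the mean level of such positions was 58.5% and 58.6% in the WT and 70.9% and 70.5% in the CKO zygote libraries. It was 27.1% and 26.4% in the WT and 36.4% and 35.7% in the CKO blastocyst libraries.

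Positions of the fragment were above the series mean in all 8 embryo libraries. Their mean was 100% in both WT zygote libraries (4 and 8 positions), 100% and 94.8% in CKO zygotes, and 81.3% and 91.7% in WT against 71.9% and 70.2% in CKO blastocysts. The excess over the series is a description only, because the windows were picked with methylated counts already known. The 5-count minimum left 4 positions, all of 1 strand, in replicate 1 of WT and CKO zygotes. The same held for WT blastocyst replicate 2 and CKO blastocyst replicate 1. The strand left out had 6 of 8 counts methylated in WT zygote replicate 1 and all counts methylated in the rest. The other sperm-methylated positions of the window had means of 75.0% and 58.3% in WT zygotes and 50.0% and 23.1% in CKO zygotes (3 positions each). They had 0% in both WT blastocyst libraries (2 and 1 positions) and 55.6% and 14.4% in CKO blastocysts (3 each). Outside the fragment, therefore, the window lay on both sides of the series mean.

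The share of positions that stayed at 80% or more in both libraries of a group gives the background. In WT zygotes 5 of 7 positions of the window did, against 15.8% of 18114 in the series, and in CKO zygotes 4 of 6 against 24.8% of 22605. In WT blastocysts 0 of 4 did, against 1.38% of 17626, and in CKO blastocysts 1 of 6 against 1.95% of 16924. The 1 in CKO blastocysts was 110764904. At 20% or less in both libraries were 0 of 7 positions in WT zygotes (4.86% in the series), 0 of 6 in CKO zygotes (0.77%), 0 of 4 in WT blastocysts (34.2%) and 1 of 6 for the CKO blastocysts (17.9%). Positions of a strand share their reads and are not independent, and the windows were chosen on such values, so nothing is read from these counts.

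**Figure D3:**
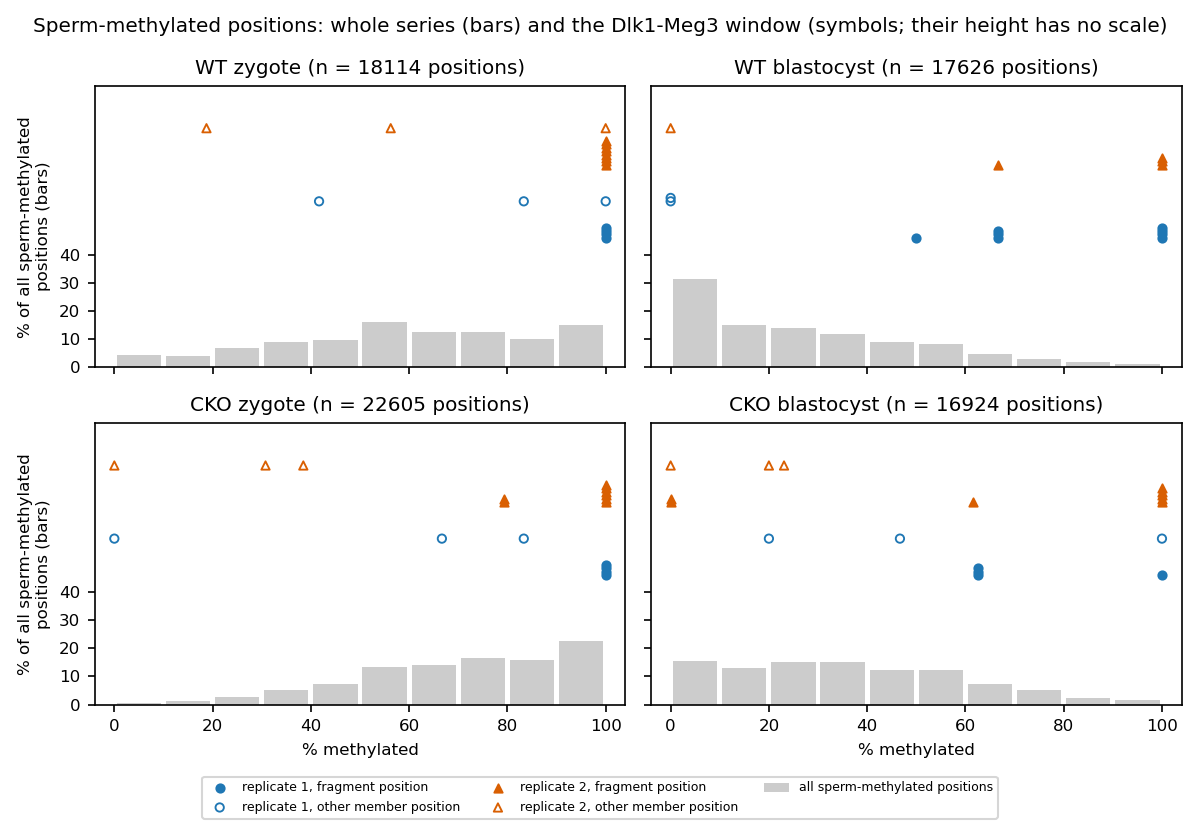
Grey bars give the share (vertical axis, %) of all sperm-methylated positions in each 10-point class of methylation (horizontal axis, %), as the mean of both libraries, in each embryo group. Filled symbols are cytosines of the Dlk1-Meg3 fragment and open symbols the other sperm-methylated cytosines of the window, by replicate, with heights that carry no scale. Symbols are shown for at least 5 counts. Filled symbols cluster at 100% in zygotes. In blastocysts, where most of the series lies low, they spread between 50 and 100% in WT and between 0 and 100% in CKO. The values of 0% are from replicate 2 of CKO, with 0 of 5 counts at 110764929 and at 110764947.

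All tiles of 100 bp on autosomes with at least 10 counts in each of the 4 libraries of a comparison were also tested (edgeR quasi-likelihood test, Benjamini-Hochberg adjusted p below 0.05). The H19/Igf2 window had no tile with that depth. In the Dlk1-Meg3 window the tested tiles started at 110763901, 110764901, 110778801 and 110787801, as far as each comparison's depth allowed. In WT zygotes against sperm 0 of 4 were called, against 14.1% of 21736 tiles, and in CKO zygotes against sperm 0 of 3, against 2.27% of 25240. Between CKO and WT zygotes 0 of 3 were called, against 0% of 15791 tiles, of which 513 had an unadjusted p below 0.05 and limma called 22. Between CKO and WT blastocysts 0 of 1 was called, against 0% of 11823, of which 395 had an unadjusted p below 0.05 and limma called 23. In both genotype comparisons the share of tiles with an unadjusted edgeR p below 0.05 was itself below 0.05. From zygote to blastocyst 0 of 2 were called in WT, against 0.0457% of 13131, and 0 of 2 in CKO, against 0.203% of 13773. With any 1 of the 4 libraries left out, edgeR called 0 tiles of the whole series in either comparison with sperm, and between 0 and 16 from zygote to blastocyst. limma called none of these tiles in the 6 comparisons, which share libraries with one another.

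The tile values behind these tests set the members beside all tiles. The tile at 110763901 was -42.4 points in WT and -37.6 points in CKO zygotes against sperm, where the medians of all tiles were -1.11 and -1.39 points. Those medians take in tiles low in sperm, which had little methylation to lose, so they are an unlike baseline for this tile. Sperm-methylated positions of the series averaged 58.5% and 58.6% in the WT and 70.9% and 70.5% in the CKO zygote libraries. This tile averaged 50.0% in WT and 54.8% in CKO zygotes. The tile at 110764901 was -0.627 and -0.757 points in the same comparisons. From zygote to blastocyst it was -10.5 points in WT and -18.2 points in CKO, and the tile at 110763901 was -32.4 points in CKO. Both libraries of the later stage lay below both of the earlier stage in 1 of 4 tiles in WT zygotes against sperm (33.4% of all tiles), 2 of 3 in CKO zygotes against sperm (30.2%), 0 of 2 in WT blastocysts against zygotes (23%) and 2 of 2 in CKO blastocysts against zygotes (28.7%). In neither stage did a tested tile of the window separate the genotypes, against 13.4% of all tiles with both CKO libraries higher and 4.5% lower in zygotes, and 13.1% and 5.71% in blastocysts.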

How the data were processed

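RRBS libraries of sperm, zygotes and blastocysts were deposited as 1 file per library. Per the submitters' processing notes, Bismark 0.10.1, Trim Galore and the mm9 build were used. The sources used here do not give settings, filters or any sorting of reads by parental allele. The authors deposited methylated and unmethylated read counts per cytosine position. The deposited percent equalled the percent recomputed from these counts within 0.001 points at 100% of positions, and only the counts were used.

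Counts were summed per position, sub-region and library with Python 3.11.15. Sub-region boundaries were drawn from general knowledge of the loci on mm9, with no annotation of that build to check them. A library entered a group mean with at least 5 counts. Named were the sub-regions in order, tiles with at least 5 counts in at least 4 libraries and the tile at 110764901; other positions were named after their values were seen. The members, lists and tests were chosen with earlier results of these data known.

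Tiles were tested with edgeR 4.0.16 in R 4.3.3 as paired columns of both read classes per library, each library having its own depth coefficient, with a dispersion of 0; the script was checked on simulated data. limma 3.58.1 on percent values was an alternative. The labels call the replicates biological duplicates. With 2 libraries per group, p-values and SDs measure only the spread between these samples.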

Additional observations from a re-analysis of the deposited data

How the results depend on the processing

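Levels of both control regions and their genotype differences were recomputed under 5 alternatives and without each replicate. For the Dlk1-Meg3 control region, narrower boundaries, which leave the tile at 110764901, moved the level to 95.7% in WT and 95.5% in CKO zygotes, with blastocysts at 85.1% (WT) and 77.3% (CKO). The most covered position per tile gave 81.1% in CKO zygotes, 67.2% in CKO blastocysts and 50.8% in WT blastocysts, and equal weight per position gave 72.8% in CKO blastocysts. CKO minus WT blastocysts reversed to 16.5 points with the most covered position per tile and to 10.7 points with equal weights. It ranged from -13.7 to 9.03 points without 1 replicate, and the zygote difference from -4.67 to -0.544 points. The cause was not tested.

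Without 1 replicate, the tile counts ranged from 0 to 0 in both comparisons with sperm and in both genotype comparisons, from 0 to 14 in WT blastocysts against zygotes and from 0 to 16 in CKO. These fits hold 3 libraries, and the lone library is assumed to vary like the pair. The main counts were 3072, 573, 0, 0, 6 and 28 in the order of the text. limma on percent gave 626, 304, 22, 23, 60 and 87. At a minimum of 5 counts, CKO zygotes against sperm gave 38 and CKO blastocysts against zygotes 16, and at a minimum of 1 count 0 and 12.

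With the replicate block, the count was 1800 for CKO zygotes against sperm, 1 for WT and 16 for CKO blastocysts against zygotes. The labels share only a replicate number between groups. Deviations of same-numbered libraries correlated by -0.0128 to 0.0238 across all tiles, which gave no sign of pairing. Counting noise in each tile lowers such correlations, so pairing is not excluded. Depth limits every level, with 2 to 30 counts per cytosine and library in the best-covered fragment.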

Other observations

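Outside the 2 windows, the neighbourhoods of Igf2 and Dlk1, placed from general knowledge of mm9, were also read. Near Igf2, 6 cytosines between 149845700 and 149845750 of chromosome 7 had 16 and 23 counts each in the sperm replicates, all unmethylated. In the embryo libraries 1 count was methylated there, at 149845738 in CKO blastocyst replicate 1 (1 of 8). The cytosine 149855697 differed between libraries of the same group: it had 4 of 18 and 4 of 12 counts methylated in sperm, 8 of 8 and 0 of 3 in CKO zygotes, 20 of 23 and 3 of 10 in WT blastocysts and 6 of 6 and 2 of 10 in CKO blastocysts. WT zygote replicate 1 had 9 of 9 and replicate 2 had no count.

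Near Dlk1, the cytosines from 110691832 to 110691882 of chromosome 12 had no methylated count in sperm, WT zygotes or WT blastocysts, but WT blastocysts had no count at 110691852 or 110691882. In CKO embryos the methylated counts there were 4 of 6 at 110691852 in CKO zygote replicate 1 and 2 of 5 at 110691882 in CKO blastocyst replicate 2, while the other cytosines covered by those reads had none. Beyond them, 110697224 had 2 of 2 counts methylated in sperm replicate 1 and 3 of 3 in CKO blastocyst replicate 2, and 110697262 had 2 of 2 and 0 of 3 in these libraries.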
